A study of Mus musculus with 81 samples.

Results

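The 10 endothelial genes Pecam1, Cdh5, Esam, Emcn, Egfl7, Kdr, Flt1, Tek, Tie1 and Eng were taken by name from the 22869 gene symbols of a single-cell RNA-seq table. They occupy 17 of its 29510 transcript rows, and each gene was read from the transcript with the highest mean over the cells. The table holds 81 single cells from the pancreas of wild-type CD1 mice (an outbred strain) at embryonic day 13.5, freed with trypsin and caught singly in a microfluidic chip. All cells belong to 1 group, the labels name no animal, and cells share their source, so they count as 1 sample: no test between conditions was possible, and intervals on shares are exact Clopper-Pearson 95% intervals that cover counting error only. Values are RPKM (reads per kilobase of transcript, scaled to the reads of each cell). A cell was said to hold a gene from 1 RPKM upward.

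The low values of each cell fell on steps that match whole reads, from which reads were estimated. Of the 81 cells, 77 had more than 500000 estimated reads, and 4 cells (C3, C43, C61 and C94) had fewer, so that a few reads in them already pass 1 RPKM. Between 2353 and 6311 genes reached 1 RPKM in a cell, with a median of 4057.

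Endothelial cells line blood vessels, and in the developing pancreas they lie next to the branching epithelium and the mesenchyme. They hold together through junction proteins of their own, read vascular endothelial growth factor (VEGF) through the receptors Kdr and Flt1, and read angiopoietins through Tek and its relative Tie1. Some of these genes are also known outside vessels: Eng, a co-receptor for TGF-beta and BMP ligands, is carried by many mesenchymal cells.

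Most cells held none of the 10 genes. At 1 RPKM, 58 of 81 cells held 0, 15 held 1 and 6 held 2. Cell C22 then held 9 and cell C72 all 10, with no cell between 2 and 9. The share of cells with at least 3 of the genes was 2.47% (2 of 81; interval 0.30 to 8.64%). In each of the 6 cells with 2 genes, Eng was present, together with Egfl7 in C42, C65 and C90, with Tek in C75 and C94, and with Kdr in C12.

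C22 and C72 were compared with the label through 14 endothelial markers that are not among the 10 genes. Each of them had 9 of the 14 at 10 RPKM or more and 12 of the 14 at 1 RPKM or more. No other cell had more than 2 at 10 RPKM. A cell was called after a marker list when at least 3 of its markers reached 10 RPKM; a list other than the stromal one took precedence, and the list with the largest share of its markers was used where several passed. This gave 2 endothelial-like cells, 63 stromal-like cells (77.8%; 67.2 to 86.3%), 5 epithelial-like, 5 leukocyte-like, 2 endocrine-like and 1 glial-like cell, and 3 without a class. C22, C72, C3, C36, C47, C56 and C91 also had at least 3 stromal markers at that level and were not counted as stromal-like, and 12 cells had exactly 3 stromal markers. Leukocyte-like C3 rests on single reads, each worth 50.4 RPKM in a transcript of 1 kb.

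The endothelial-like cells were not free of stromal transcripts. Each had 4 stromal markers at 10 RPKM, and the collagen genes Col1a2 and Col3a1 stood at 43.8 and 56 RPKM in C22 and at 125.5 and 88.2 RPKM in C72. The summed stromal list came to 173.5 RPKM in C22 and 262.2 RPKM in C72, against 194.9 to 1231 RPKM (median 417.4) in the stromal-like cells. All epithelial and endocrine markers were at 0 in both. Of 10 leukocyte markers, 3 (Ptprc, C1qa and Coro1a) were at 0 in both; the list summed to 0.533 RPKM in C22 and 1.47 RPKM in C72, most of it Tyrobp in C22 (0.465 RPKM), against 0 to 30.5 RPKM in the stromal-like cells. C22 and C72 also had many genes detected (5606 and 6311 at 1 RPKM). What these transcripts or the gene number contribute to the results below was not tested.

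**Figure D1:**
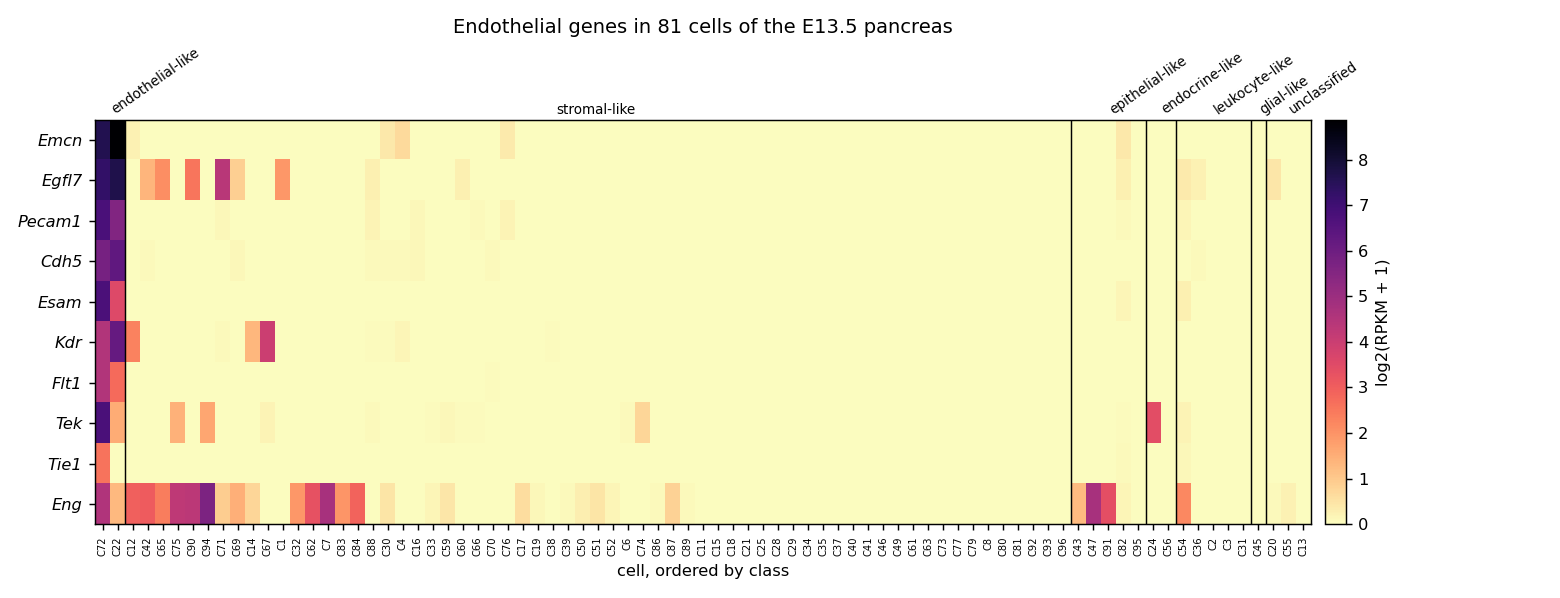
Heat map of log2(RPKM + 1) for the 10 endothelial genes (vertical axis) in each of the 81 cells (horizontal axis), with cells ordered by class and vertical lines between classes. C72 and C22 at the left are dark across nearly all genes, while colour elsewhere lies mainly on Eng, with scattered cells for Egfl7, Kdr and Tek.

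Among the surface and junction genes, Emcn (endomucin, a sialomucin of the endothelial surface; mm9 chr3:137004042-137094033) had the highest level in both cells. Emcn measured 468 RPKM in C22 and 194 RPKM in C72, and its highest value in the other 79 cells was 0.609 RPKM, in C4. Pecam1 (the adhesion molecule CD31; chr11:106515532-106576595) measured 45.9 RPKM in C22 and 108 RPKM in C72, against at most 0.143 RPKM elsewhere. Both genes were higher in each of these cells than in all 79 others. That held for 7 of the 10 genes, all but Tek, Tie1 and Eng, against a background of 0.567% of the 13237 genes above 0 in at least 3 cells. This filter leaves out genes above 0 in C22 and C72 alone, such as Sox7, so the background does not cover them. Flt1 passed the filter only through 1 read in C70.

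Cdh5 (VE-cadherin, the adherens junction cadherin of endothelium; chr8:106625525-106668402) measured 76.5 RPKM in C22 and 54.9 RPKM in C72, with a highest value elsewhere of 0.0838 RPKM. Esam (a tight junction adhesion molecule; chr9:37335674-37345904) measured 10.7 RPKM in C22 and 106 RPKM in C72, with at most 0.188 RPKM elsewhere. The 2 endothelial-like cells held 99.7% of the summed RPKM of Emcn, 99.5% of Pecam1, 99.6% of Cdh5 and 99.7% of Esam.

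Egfl7, a secreted protein of the vessel wall (chr2:26442150-26448202), was second to Emcn in both cells, with 205 RPKM in C22 and 151 RPKM in C72. It was less closely restricted: 5 other cells held it, the highest being C71 with 19.9 RPKM, and C22 and C72 had 91.1% of its summed RPKM.

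Of the VEGF receptors, Kdr (VEGFR2, the main signalling receptor; chr5:76329299-76374453) measured 72.2 RPKM in C22 and 21.8 RPKM in C72, and 3 other cells held it, up to 14.7 RPKM in C67. Flt1 (VEGFR1, a decoy receptor for VEGF; chr5:148373772-148537564) measured 5.75 RPKM in C22 and 21.9 RPKM in C72, and its highest value elsewhere was 0.0364 RPKM. C22 and C72 held 82.1% of the summed RPKM of Kdr and 99.9% of that of Flt1.

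Of the angiopoietin receptor pair, Tek (Tie2, the receptor that binds angiopoietins; chr4:94405991-94541630) measured 1.91 RPKM in C22 and 109 RPKM in C72. Tek in C22 lay below the 9.75 RPKM of C24, an endocrine-like cell with 157 estimated Tek reads, and below the 2.16 RPKM of shallow cell C94, which came from 2 reads. Tie1 (the partner receptor; chr4:118143796-118162454) was at 0 in C22 and at 5.06 RPKM in C72, the only cell that held it.

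Eng (endoglin; chr2:32502115-32538189) was spread more widely over the cells than any other of the genes. It measured 1.45 RPKM in C22 and 22.6 RPKM in C72, and these cells held only 10.8% of its summed RPKM. In all, 18 of 81 cells held Eng (22.2%; 13.7 to 32.8%), and 3 of them, C94 (50.2 RPKM, from 34 reads), C7 (25.6 RPKM) and C47 (25.5 RPKM), lay above C72.

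The endothelial-like cells shared 9 of the genes but at unequal levels. Tek was 57.2-fold higher in C72 than in C22 (2751 against 34 estimated reads), Eng 15.6-fold higher (416 against 19 reads) and Esam 9.91-fold higher (1071 against 76 reads). Flt1 was 3.81-fold higher in C72, and Tie1 at least 26.3-fold higher, with 112 reads in C72 set against the floor of 3 reads for the 0 in C22. Kdr was 3.32-fold and Emcn 2.42-fold higher in C22. Pecam1 was 2.35-fold higher in C72, and Cdh5 and Egfl7 were closest, 1.39-fold and 1.35-fold higher in C22. With 1 cell on each side these folds have no replicate check.

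**Figure D2:**
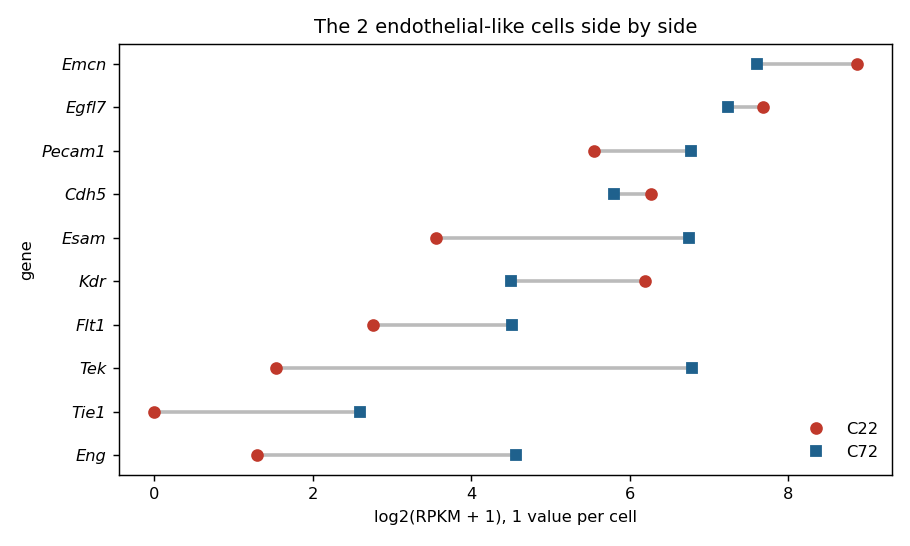
Level of each of the 10 genes in cell C22 (circles) and cell C72 (squares) as log2(RPKM + 1), 1 value per cell, with a grey line joining the pair. Emcn and Egfl7 are at the right for both cells, and Tek has the widest gap, 1.91 RPKM in C22 against 109 RPKM in C72.

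Of the 10 genes, 4 were held by at least 1 stromal-like cell: Eng, Egfl7, Kdr and Tek. The background for such a count is high: 94.6% of the 13237 genes above 0 in at least 3 cells were held by a stromal-like cell, and 98.8% of the 4078 genes held by both endothelial-like cells. The other 6 genes, Pecam1, Cdh5, Esam, Emcn, Flt1 and Tie1, were held by 0 of 63 stromal-like cells, which allows a share of up to 5.69% by the exact interval and 4.76% by the limit of 3 counts. In all, 16 of the 63 cells held at least 1 of the genes and 47 held none.

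Eng was the gene most often held in stroma, by 12 of 63 cells (19%; 10.2 to 30.9%). Its values in those 12 ran from 1.76 RPKM in C69 to 50.2 RPKM in C94, with a median of 7.04 RPKM, and every one of them was above the 1.45 RPKM of endothelial-like C22. C7 at 25.6, C90 at 18.9 and C75 at 18 RPKM were the highest after C94. The count rests on the detection level and the transcript: it was 26 above 0 RPKM, 19 with the overlapping transcripts summed and 4 at 10 RPKM. Of the 16 cells, 6 held Eng and none of the other genes. The share was 13.8% (4 of 29; 3.89 to 31.7%) among stromal-like cells numbered up to 48 and 23.5% (8 of 34; 10.7 to 41.2%) among those with higher numbers, with intervals that overlap.

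Eng was also present in other classes. Among the 5 epithelial-like cells, C47 had 25.5 RPKM, C91 had 9.52 RPKM and shallow C43 had 1.39 RPKM from 2 reads. C47 and C91 each also had 4 stromal markers at 10 RPKM, and C43 had 1. The epithelial-like cells C82 and C95, with 2 stromal markers each, did not hold Eng (0.125 and 0 RPKM). What stromal transcripts contribute to Eng in the epithelial-like cells was not tested. Leukocyte-like C54 had 3.64 RPKM. Neither endocrine-like cell held Eng, nor did the glial-like cell.

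Egfl7 was held by 5 stromal-like cells (7.94%): C42 at 1.6, C1 at 2.78, C65 at 3.26, C90 at 4.89 and C71 at 19.9 RPKM. The lowest 4 rest on 8 to 23 estimated reads and C71 on 82, where C22 and C72 had 907 and 950. Kdr was held by 3 (4.76%), at 1.5 RPKM in C14, 3.95 RPKM in C12 and 14.7 RPKM in C67, the last from 258 reads. Tek was held by 2 (3.17%), at 1.68 RPKM in C75 from 38 reads and at 2.16 RPKM in C94 from 2 reads. At 5 RPKM, Egfl7 and Kdr were each left in 1 stromal-like cell (C71 and C67) and Tek in 0. In these stromal-like cells the receptor or secreted gene came without Pecam1, Cdh5 or Emcn at 1 RPKM. None of the 63 stromal-like cells held Pecam1, Cdh5 or Emcn, so this does not set these cells apart. Of the 14 other endothelial markers, 48 of 63 stromal-like cells held 0, 11 held 1 and 4 held 2.

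**Figure D3:**
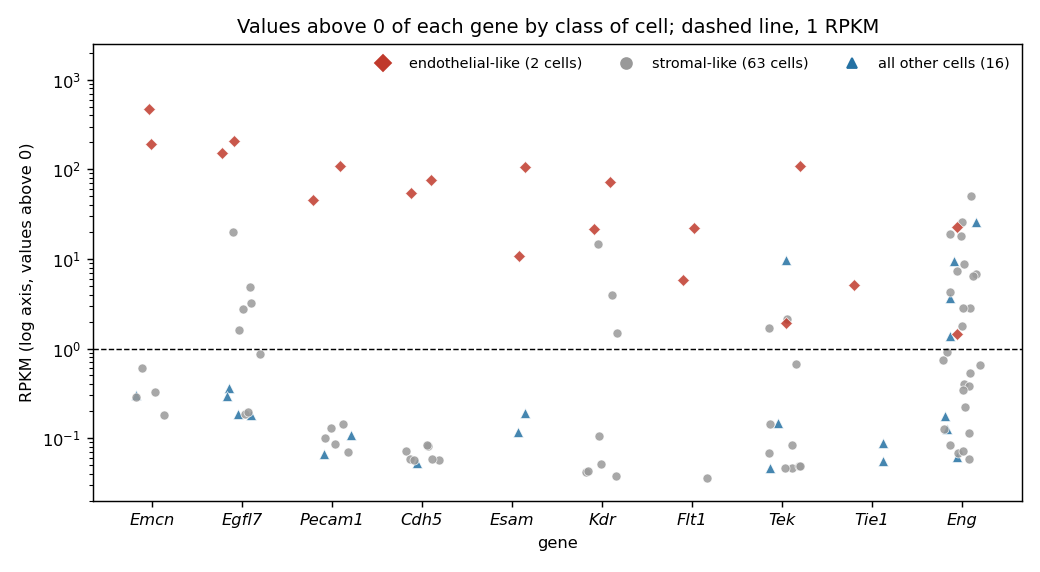
RPKM above 0 of each of the 10 genes on a log axis, 1 point per cell, with endothelial-like cells as diamonds, stromal-like cells as circles and all others as triangles; the dashed line marks 1 RPKM. Eng spreads over stromal-like, epithelial-like and leukocyte-like cells up to 50.2 RPKM, while Pecam1, Cdh5, Esam, Emcn and Flt1 lie at 1 RPKM or above only in the 2 endothelial-like cells.

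Mean log2(RPKM + 1) was then compared between the 2 endothelial-like and the 63 stromal-like cells, and a difference of at least 1 was counted. All 10 genes were higher in the endothelial-like cells by that measure. The background was 29.5% of the 13237 genes higher (3899 genes) and 6.24% lower (826 genes). With no filter on low values, the background was 17.3% of genes higher. The median difference was 5.19 for the 10 genes and 0.04 for all genes. Emcn had the widest difference at 8.21, followed by Egfl7 at 7.25, Pecam1 at 6.15, Cdh5 at 6.03, Kdr at 5.22, Esam at 5.15, Tek at 4.09 and Flt1 at 3.64. Eng at 2.22 and Tie1 at 1.30 were nearest to the limit. Without C72 both drop below it, and 8 of the 10 genes are left.

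Values above 0 RPKM outside C22 and C72 were not spread evenly over the plate. The labels give each library an index sequence in a first and a second part, and 12 cells share the first index of C22 or C72 while 8 cells share the second index, which C22 and C72 have in common. Of the values of the 10 genes, 33.3% (40 of 120) were above 0 in cells with the first index shared, 18.75% (15 of 80) in cells with the second shared and 6.10% (36 of 590) in the 59 cells that share neither. Without Eng these shares were 32.4% (35 of 108), 15.3% (11 of 72) and 2.26% (12 of 531).

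Traces of the most restricted genes outside C22 and C72 lay in cells with a shared index. Outside C22 and C72, Pecam1, Cdh5, Flt1, Tie1 and Esam were above 0 in 0 of the 59 cells that share neither index, and Emcn in 1 of them. Cell C82, which shares the first index of C72, had 7 of the 10 genes above 0 and none at 1 RPKM. Leaving out Eng, all 33 values under 1 RPKM in cells sharing the first index came from 3 reads or fewer, and they stood at a median of 0.111% of the level in the cell that shares the index. Eng differed here too, with values above 0 in 24 of the 59 cells that share neither.

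At 1 RPKM the groups lay closer: 4.17% of values in cells sharing the first index, 5% in those sharing the second and 3.05% in those sharing neither. These shares include Eng, which made up 3 of 5 values with the first index shared, 1 of 4 with the second and 12 of 18 with neither. C67, C71 and C24, the cells with the highest Kdr, Egfl7 and Tek outside the endothelial-like cells, all share the second index with C22 and C72. Emcn, the most abundant gene in both C22 and C72, was at 0 in C67 and in C71. Others of the 10 genes were above 0 there: Tek at 0.145 RPKM in C67, and Pecam1 at 0.087, Kdr at 0.052 and Eng at 0.907 RPKM in C71. C24 had none of the 10 but Tek above 0. Index and position on the plate cannot be told apart here, and what either contributes to these values was not tested.

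**Figure D4:**
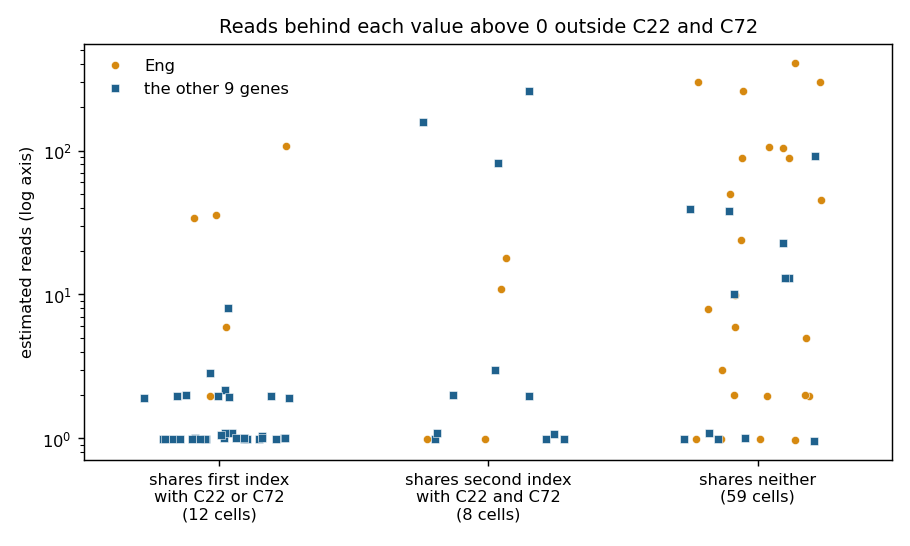
Estimated reads (log axis) behind each value above 0 outside C22 and C72, with Eng as circles and the other 9 genes as squares, grouped by whether a cell shares the first index, the second index or neither with C22 or C72. Values of 3 reads or fewer gather in cells sharing the first index, and Eng makes up 24 of the 36 values in cells sharing neither.

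The ligands and partners of these genes were read from fixed lists, counting the genes above 0 in at least 3 cells and leaving out those used to name cells. Each count reads against the background of 29.5% of all genes higher and 6.24% lower. Of 8 VEGF ligands and co-receptors, 3 were higher in the endothelial-like cells by at least 1 and 2 were lower (median difference -0.12). Vegfa, the main ligand of Kdr, was at 0 in both C22 and C72 and at 1 RPKM or more in 40 of 63 stromal-like cells, with a difference of -2.44. Nrp1, a VEGF co-receptor, measured 26.1 RPKM in C22 and 51.6 RPKM in C72, a difference of 3.06. Flt4 (VEGFR3) measured 2.28 and 10.7 RPKM, and Nrp2 7.87 and 2.33 RPKM.

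Of the 4 angiopoietin and Tie pathway genes counted, 1 was higher and 0 lower (median 0.32). The higher one was Ptprb (VE-PTP, a phosphatase that acts on Tek), at 4.55 and 18.9 RPKM, with a difference of 3.38. Angpt1, the activating ligand of Tek, was at 0 in C22 and C72 and was held by 6 stromal-like cells, up to 22.7 RPKM.

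The TGF-beta and BMP list, the pathway of Eng, had 3 of 9 genes higher and 0 lower (median 0.71), a share close to the 29.5% of all genes. Tgfbr2, the type II TGF-beta receptor, measured 63.4 RPKM in C22 and 40.2 RPKM in C72. Smad1, which carries BMP signals to the nucleus, measured 85.2 and 83.9 RPKM. Acvrl1 (ALK1), the type I receptor that works with Eng in endothelium, was at 0 in C22 and at 3.78 RPKM in C72, and 2 stromal-like cells held it, up to 11.4 RPKM in C32, where Eng was at 2.83 RPKM.

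Endothelial transcription factors had the highest median of the lists, 2.60, with 12 of 15 genes higher and 0 lower. Bcl6b measured 170.0 RPKM in C22 and 23 RPKM in C72, and Hhex 86.1 and 27.5 RPKM. Elk3, an ETS factor, measured 39.2 and 84.9 RPKM but was also held by 31 of 63 stromal-like cells, whereas Lmo2 measured 23.1 and 8.77 RPKM and was held by 1. Of the other ETS factors, chosen after their values were seen, Fli1 measured 33 and 64 RPKM and was held by 36 of 63 stromal-like cells, and Erg did not reach 1 RPKM in either cell (0.12 and 0 RPKM).

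Of 17 junction partners, 10 were higher and 1 lower (median 1.40). They included Cd34, a sialomucin like Emcn, at 83.3 RPKM in C22 and 51.5 RPKM in C72, and F11r (JAM-A), a relative of Esam, at 56 and 7.76 RPKM. Jam2, of the same family, measured 26.2 and 1.39 RPKM, and Ctnnd1 (p120 catenin, which binds Cdh5) 66.8 and 41.5 RPKM.

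Of 12 Notch and apelin pathway genes, 7 were higher and 1 lower (median 1.26). The apelin receptor Aplnr measured 44.9 RPKM in C22 and 76.5 RPKM in C72, its ligand Apln 0.083 and 66.8 RPKM, and the sphingosine-1-phosphate receptor S1pr1 8.39 and 86.9 RPKM. Jag1, a Notch ligand, was lower in the endothelial-like cells (difference -2.35) and was held by 60 of 63 stromal-like cells. Chosen after their values were seen, the Notch ligand Dll4 measured 13.2 RPKM in C22 and 0 in C72, and Notch4 measured 0 and 6.28 RPKM. C22 and C72 therefore differed in these genes as well as in Tek, Tie1 and Eng.

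Lymphatic genes numbered 4, of which 2 were higher and 0 lower (median 0.53). The higher ones were Flt4 (difference 2.61), which is also counted in the VEGF list, and Lyve1 (1.11). Prox1, the factor that sets lymphatic identity, was at 0 in both cells, and Lyve1 measured 0 in C22 and 4.26 RPKM in C72. Of 10 genes of mural cells (pericytes and smooth muscle, which surround vessels), 1 was higher and 4 lower (median -0.72). The higher one was Kcnj8, a potassium channel subunit of pericytes, at 0 in C22 and 50.9 RPKM in C72, which makes up most of the list in C72. Its partner Abcc9 was at 0 in C22 and 9.26 RPKM in C72, chosen after its values were seen. Pdgfrb measured 41 RPKM in C22 and 0.275 RPKM in C72. Rgs5 measured 2.31 and 19.1 RPKM, and 59 of 63 stromal-like cells held it. Des measured 1.10 and 0 RPKM, with a difference of -1.81. The mural list summed to 45.1 RPKM in C22 and 80 RPKM in C72, against 25 to 769 RPKM in the stromal-like cells.

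**Figure D5:**
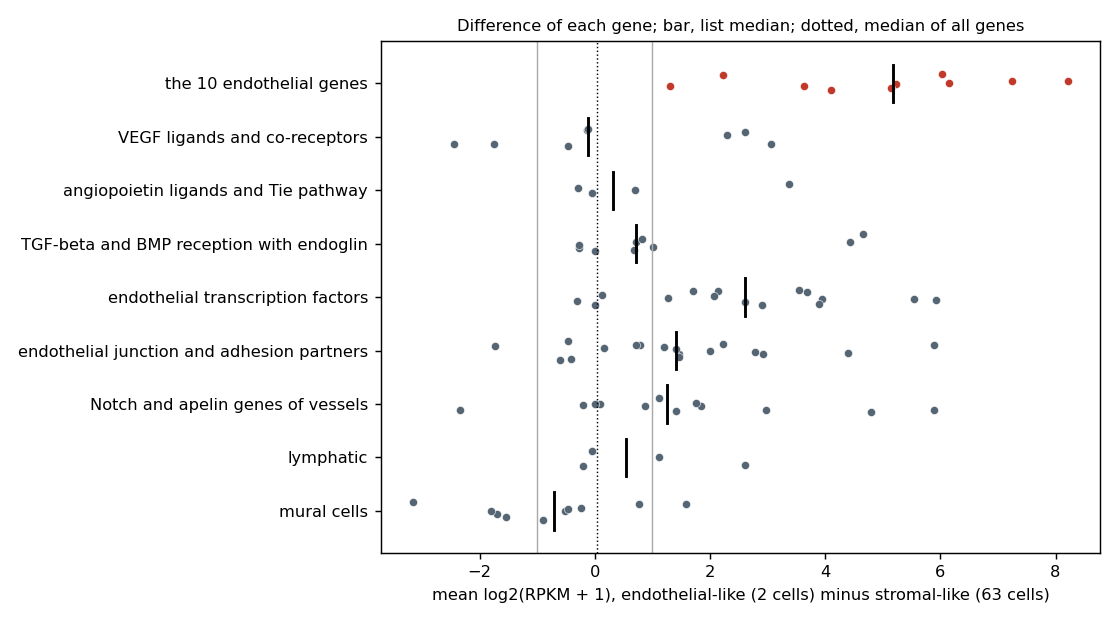
Difference of mean log2(RPKM + 1), endothelial-like minus stromal-like cells, for the genes of each fixed list, 1 point per gene, beside the 10 endothelial genes; black bars mark list medians, the dotted line the median of all genes and grey lines a difference of 1 either way. The endothelial genes (median 5.19) and the transcription factor list (median 2.60) lie furthest to the endothelial-like side, and the mural list (median -0.72) lies on the stromal-like side.

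The genes whose levels ran most like the mean of the 10 over the 81 cells were Col15a1, Fabp4, Gm525, Aplnr and Cav2 (Pearson r 0.97 each), Stab2 and Icam2 (0.969), Plvap (0.966), and Robo4 and Ptprb (0.965). Each reached 1 RPKM in 2 cells, C22 and C72, so the 81 points come down to those cells against the rest, and cells share plate and processing. Icam2, Plvap and Robo4 were among the endothelial markers that named C22 and C72, and do not count as separate evidence for that name. Fabp4, a fatty acid binding protein of capillary endothelium, measured 38.4 RPKM in C22 and 140.5 RPKM in C72. Plvap, which forms the diaphragms of fenestrated vessels, measured 32.7 and 39.9 RPKM. Icam2, an adhesion molecule, measured 70.6 and 111.6 RPKM.

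The start regions of the genes were read from RefSeq (GRCm38.p6), which gave 9 promoters for 7 of the 10 genes; Pecam1, Cdh5 and Esam had no entry. The letters AGGAAG or CGGAAG, forms of the core that ETS factors bind, were looked for on both strands from 250 bases before to 50 bases after the start. They were in 6 of 9 promoters, against 46.5% of 32851 promoters of the same length, and at least 2 copies were in 6 of 9, against 15.9%. Egfl7 accounts for 3 of the 9, so they are not separate genes. The GATA letters AGATAA, also on both strands, were in 1 of 9 (Tek), against 11.2%. A match is a run of letters and not a shown binding site. The promoters of Emcn, the most abundant gene, Tie1, the gene held by C72 alone, Eng, the gene spread over stroma, and Kdr, which had no such letters, are printed with the ETS letters in capitals. Where AGGAAG lies on the other strand, the capitals read CTTCCT. They lie at chr3:137340828-137341127 (plus strand), chr4:118489800-118490099 (minus strand), chr2:32646345-32646644 (plus strand) and chr5:75978406-75978705 (minus strand).
Emcn: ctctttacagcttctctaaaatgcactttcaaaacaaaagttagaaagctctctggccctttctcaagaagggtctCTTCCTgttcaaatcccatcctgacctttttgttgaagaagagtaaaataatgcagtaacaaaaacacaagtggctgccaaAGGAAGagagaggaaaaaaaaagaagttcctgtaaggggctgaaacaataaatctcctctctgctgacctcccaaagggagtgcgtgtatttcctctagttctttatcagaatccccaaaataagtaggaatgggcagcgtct
Tie1: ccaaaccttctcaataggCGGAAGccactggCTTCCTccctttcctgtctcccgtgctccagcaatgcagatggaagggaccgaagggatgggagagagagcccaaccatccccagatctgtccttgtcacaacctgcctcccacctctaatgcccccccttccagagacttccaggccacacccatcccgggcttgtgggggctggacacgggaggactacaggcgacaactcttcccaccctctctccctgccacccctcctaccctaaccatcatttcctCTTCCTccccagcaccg
Eng: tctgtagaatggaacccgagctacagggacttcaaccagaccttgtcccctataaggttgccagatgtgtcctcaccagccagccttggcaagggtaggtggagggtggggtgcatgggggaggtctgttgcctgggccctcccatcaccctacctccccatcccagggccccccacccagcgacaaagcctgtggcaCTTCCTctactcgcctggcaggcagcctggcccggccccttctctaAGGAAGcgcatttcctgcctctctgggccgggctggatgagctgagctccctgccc
Kdr: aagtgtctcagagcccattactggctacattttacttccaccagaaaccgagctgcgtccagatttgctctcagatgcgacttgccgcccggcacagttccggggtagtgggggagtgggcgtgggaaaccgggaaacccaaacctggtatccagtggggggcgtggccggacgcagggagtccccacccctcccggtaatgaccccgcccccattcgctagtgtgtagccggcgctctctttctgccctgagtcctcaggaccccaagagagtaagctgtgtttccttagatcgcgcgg
The endothelial-restricted Emcn and the widely held Eng both carry 2 copies of AGGAAG, Tie1 carries 2 copies and 1 of CGGAAG, and Kdr carries none of either.

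Some of the 10 genes can share reads with a neighbour. Egfl7 has 15.3% of its 50-base windows in common with Gm20532, and Eng has 0.358% in common with Fpgs, which overlaps it on the opposite strand. The other 8 genes shared none. Egfl7 has 4 transcript rows, Eng 3, Pecam1 2 and Emcn 2, which overlap, and no source used here states how reads were assigned to them. The rows of a gene had similar values, such as 45.9 and 45.1 RPKM for Pecam1 in C22. Sums over rows can therefore count a read more than once. The microRNA precursor gene Mir126, which lies inside Egfl7, was listed at 0 in all 81 cells. Whether the libraries can capture so short an RNA was not tested, so the 0 does not show that it is absent.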

How the data were processed

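Per the labels' protocols, a microfluidic chip caught the cells, their RNA was amplified with SMARTer reagents, and Nextera XT gave the libraries. The deposited table gives 1 value per transcript and cell, with coordinates in mm9. Base calling used CASAVA 1.8.2 and the build was mm9, per the submitters' processing notes; aligner and counting rule: not given in the sources used here. No header names the unit. The deposited values were taken as RPKM because low values multiplied by transcript length (GENCODE vM21, 96.9% of transcripts) fell on whole reads: a median of 76.3% of such values per cell, at lowest 71.9%, where values without steps would give 30%. The step gave each cell's estimated reads.

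The 10 genes and all lists were chosen with earlier results of these data known. Genes above 0 in at least 3 cells were compared as mean log2(RPKM + 1), and a difference of at least 1 was counted. Genes named from each list are up to 4 with the widest difference; others were named after their values were seen. Genes named as alike are those with the highest Pearson r with the mean of the 10. No doublets were removed by any caller. The read estimate and the difference of means were tested on simulated data, and the other steps were not. Alternatives varied the detection level, pseudocount, gene filter, transcript choice, marker number and single cells left out.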

Additional observations from a re-analysis of the deposited data

How the results depend on the processing

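With values above 0 RPKM counted as held, 11 cells in place of 2 held at least 3 of the genes, and 8 of the 10 genes in place of 4 were found in stromal-like cells. At least 2 genes in place of 3 gave 8 cells. Leaving out C72 or C22 gave 8 to 10 genes higher in the endothelial-like cells. Cells called with at least 2 markers gave 9, Tie1 dropping out, with 3 endothelial-like cells. A pseudocount of 10 gave 8 genes against a background of 9.65%. The share of values above 0 in cells sharing an index was 27.5% and became 4.5% at 1 RPKM, an alternative chosen after seeing the data, as were those leaving out single cells; the cause was not tested. Summing the transcripts of a gene, which can count a read more than once, gave 5 genes in stroma by adding Emcn in 1 cell. In the row used elsewhere, Emcn was at most 0.609 RPKM in the stromal-like cells. A detection level of 5 or 10 RPKM gave 3 genes in stroma. Of 150 settings for the cells holding a single gene, 130 stayed within the exact 95% interval of the reported share and 20 fell outside. That interval is wide: the 5 cells with Kdr became 10 above 0 RPKM and 3 at 5 RPKM, and the 18 with Eng became 25 with transcripts summed. Some of the 130 could not have moved. A gene held by no stromal-like cell stays so at a higher detection level or with cells left out. No paired analysis was possible because the series has 1 group and no test. Depth limits any value under 1 RPKM, most of which rest on 3 reads or fewer.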

Other observations

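By the 14 other endothelial markers, C32 came nearest to the endothelial-like cells, with 2 at 10 RPKM. The genes named here were chosen after their values were seen. C32, a stromal-like cell, had Mmrn2 at 14 RPKM and Rasip1 at 20.3 RPKM and, of the 10 genes, held only Eng (2.83 RPKM). C20, C41, C47 and C62 followed, each with 1 marker at 10 RPKM and 2 at 1 RPKM. C20, which had no class, had Rasip1 at 23.2 RPKM and She at 2.69 RPKM, with Egfl7 at 0.37 RPKM and Eng at 0.06 RPKM, and shares the second index with C22 and C72.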
